A study of Mus musculus with 9 samples.

Results

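The comparison set 3 ATAC-seq libraries of a TetR line of mouse embryonic stem cells against 3 libraries of the WT line, taken by their titles from a series of 9 libraries. The TetR cells were E14 cells of the TOT2N variant with a stable integration of a TetR construct, and the WT cells were wild type E14 cells of the same variant, so any change that makes the TOT2N variant is shared by both. The remaining 3 libraries came from the same variant with a TetR-MYBTA construct and served only as a further readout. The labels do not state the promoter of the construct, its place of integration, whether a line is 1 clone, or whether the libraries of a line came from separate cultures. The p-values therefore reflect variation among libraries that could be purely technical.

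ATAC-seq marks open chromatin: the Tn5 transposase inserts sequencing adapters where DNA is not covered by nucleosomes, and reads pile up as peaks at active promoters, enhancers and insulator sites. TetR is the bacterial tetracycline repressor, which binds the tet operator and carries no activation domain of its own, and such a line is commonly the control for a TetR fusion protein. E14 cells are an established male embryonic stem cell line, in which the transcription factors Pou5f1, Sox2, Nanog, Klf4 and Esrrb keep naive pluripotency and bind many distal enhancers.

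Peaks of the 6 lists that overlapped by at least 1 bp were merged into 1 region, which gave 101302 regions on the 19 autosomes. A region was called TetR-only when it had a peak in all 3 TetR libraries and in no WT library, and WT-only in the reverse case. The lists give no height for a peak, so its row in its list, which HOMER orders, served as its place, as a percentile with 100 for the first row. That use of the row order rested on a check: over the regions 2 lists share, the rank correlation of place was 0.893 to 0.907 in the 6 pairs of libraries of the same line and 0.781 to 0.802 in the 9 pairs of different lines, as a description over regions. The check shows that the order is reproducible. It cannot show that the order follows peak height, which the lists do not give.

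Some of the regions lay on promoters, and 8 of these windows are shown because they hold the best placed or best known genes of each direction. Each runs from 250 bases before a gene's start to 50 after it, as RefSeq gives it for the GRCm38.p6 assembly, which shares its coordinates with the mm10 build of the lists. Capitals mark letters of the GC box (GGGCGG), the CCAAT box (CCAAT), the TATA box (TATAAA) and the AP-1 motif (TGANTCA), found on either strand, where adjoining matches may overlap. In the TetR-only direction these are Agpat1 (chr17:34605611-34605910, plus strand), an acyltransferase gene of phospholipid synthesis, Inhbb (chr1:119422199-119422498, minus strand), which encodes a subunit of activin and inhibin, En1 (chr1:120602237-120602536, plus strand), a homeobox gene of the midbrain and limb, and Gsc (chr12:104473187-104473486, minus strand), the goosecoid homeobox gene of the gastrula organizer.
Agpat1: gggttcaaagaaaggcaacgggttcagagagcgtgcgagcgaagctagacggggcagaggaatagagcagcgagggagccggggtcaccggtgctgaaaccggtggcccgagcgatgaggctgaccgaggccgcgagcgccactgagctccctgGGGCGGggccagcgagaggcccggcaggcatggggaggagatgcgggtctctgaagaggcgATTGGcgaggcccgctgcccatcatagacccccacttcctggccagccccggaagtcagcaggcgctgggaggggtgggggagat
Inhbb: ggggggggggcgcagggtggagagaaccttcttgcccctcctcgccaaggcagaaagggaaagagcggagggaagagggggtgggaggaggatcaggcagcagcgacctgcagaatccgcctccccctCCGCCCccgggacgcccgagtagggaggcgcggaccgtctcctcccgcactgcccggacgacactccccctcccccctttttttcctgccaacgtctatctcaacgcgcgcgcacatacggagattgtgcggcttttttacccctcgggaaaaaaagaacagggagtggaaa
En1: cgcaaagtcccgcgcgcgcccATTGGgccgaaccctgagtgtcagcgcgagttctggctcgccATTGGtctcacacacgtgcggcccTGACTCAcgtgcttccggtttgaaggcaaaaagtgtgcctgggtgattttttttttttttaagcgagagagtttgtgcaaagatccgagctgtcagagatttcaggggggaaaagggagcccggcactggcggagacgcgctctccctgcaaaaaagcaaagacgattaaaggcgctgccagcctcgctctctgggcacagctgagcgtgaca
Gsc: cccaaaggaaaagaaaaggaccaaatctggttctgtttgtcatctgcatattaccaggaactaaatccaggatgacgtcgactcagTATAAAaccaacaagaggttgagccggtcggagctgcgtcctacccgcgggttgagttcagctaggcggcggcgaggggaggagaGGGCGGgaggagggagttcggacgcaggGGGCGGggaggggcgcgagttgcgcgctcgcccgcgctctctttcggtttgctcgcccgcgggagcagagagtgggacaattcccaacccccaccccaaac

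In the WT-only direction these are Mok (chr12:110840890-110841189, minus strand), a protein kinase gene, Zfp951 (chr5:104859978-104860277, minus strand), a zinc finger gene, Fblim1 (chr4:141599949-141600248, minus strand), which encodes a filamin-binding LIM protein, and Cldn7 (chr11:69965171-69965470, plus strand), which encodes the tight junction protein claudin 7.
Mok: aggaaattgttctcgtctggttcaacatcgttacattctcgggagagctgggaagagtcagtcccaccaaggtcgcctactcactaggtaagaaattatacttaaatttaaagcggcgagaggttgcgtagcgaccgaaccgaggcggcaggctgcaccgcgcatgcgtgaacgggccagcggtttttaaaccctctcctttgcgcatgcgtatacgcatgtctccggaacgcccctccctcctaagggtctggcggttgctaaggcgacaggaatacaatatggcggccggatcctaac
Zfp951: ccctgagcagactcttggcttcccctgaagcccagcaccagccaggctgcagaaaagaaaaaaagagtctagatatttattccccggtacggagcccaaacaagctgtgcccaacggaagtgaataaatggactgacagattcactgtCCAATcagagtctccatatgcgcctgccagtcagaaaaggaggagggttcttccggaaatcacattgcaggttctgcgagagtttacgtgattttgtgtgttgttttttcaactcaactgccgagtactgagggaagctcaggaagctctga
Fblim1: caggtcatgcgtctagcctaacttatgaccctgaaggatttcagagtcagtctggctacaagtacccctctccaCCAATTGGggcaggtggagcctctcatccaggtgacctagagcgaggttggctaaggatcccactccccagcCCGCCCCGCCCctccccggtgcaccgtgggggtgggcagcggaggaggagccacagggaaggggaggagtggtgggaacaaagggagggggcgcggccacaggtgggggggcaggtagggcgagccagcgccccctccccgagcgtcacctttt
Cldn7: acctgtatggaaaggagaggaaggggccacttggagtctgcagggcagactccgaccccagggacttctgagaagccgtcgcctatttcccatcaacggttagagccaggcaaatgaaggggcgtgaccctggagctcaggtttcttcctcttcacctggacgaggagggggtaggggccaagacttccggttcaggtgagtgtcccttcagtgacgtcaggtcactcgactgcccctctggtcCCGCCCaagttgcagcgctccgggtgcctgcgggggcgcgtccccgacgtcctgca

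In these windows 3 of the 4 TetR-only promoters and 2 of the 4 WT-only promoters hold a GC box, and En1 holds 2 CCAAT boxes. Of all 20084 promoter windows, of which 10615 were overlapped by a region, 51 were overlapped by TetR-only regions (0.254%) and 53 by WT-only regions (0.264%). A GC box was found in 64.7% of the TetR-only windows, 64.2% of the WT-only windows, 71.0% of the 7574 windows with a peak in all 6 libraries and 47.0% of all windows. A CCAAT box was found in 31.4%, 18.9%, 43.8% and 38.1% of them. A TATA box was found in 13.7%, 3.77%, 5.32% and 12.7%, and the AP-1 motif in 11.8%, 5.66%, 3.96% and 7.06%. The TetR-only and WT-only shares rest on 7 and 2 windows for the TATA box and 6 and 3 for the AP-1 motif, too few to compare. The 51 and 53 windows belong to 50 and 47 genes, so some genes enter more than once. Promoter windows with a called peak in only 1 line thus carried a GC box about as often in either direction, and a match describes the letters only. A window without a called peak is not shown to be closed.

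The libraries held 58762 to 70230 peaks in TetR and 56612 to 63098 peaks in WT, from 16.4 M to 20.1 M and 18.5 M to 23.0 M total tags. Tags in peaks made up 9.78%, 9.72% and 9.30% of total tags in TetR against 7.84%, 8.09% and 7.79% in WT, so the lines did not overlap (two-sided exact permutation p = 0.1, the smallest that 3 against 3 libraries allow). Each list had 1 peak width, 195 to 198 bp in TetR and 201 to 205 bp in WT. These differences moved with the line, and their part in the counts that follow was not tested. At gene ends of embryonic stem cell markers, peaks were found for 5 to 6 of 8 genes in TetR libraries and 4 to 5 of 8 in WT libraries, with none at the ends of Esrrb or Zfp42 in any of the 6, although Esrrb held 15 or 16 peaks inside it in each library.

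Markers of other cell types also had peaks at gene ends: 4 to 6 of 12 feeder fibroblast genes in TetR and 4 to 7 in WT, with Col3a1, Col6a3, Fap, Lum and Postn at 0 in all 6 libraries. For trophoblast genes they were 2 of 6 in TetR and 3 to 5 in WT, with Krt7 at 0 throughout. For neural genes they were 5 of 5 in TetR and 3 to 5 in WT, for blood progenitor genes 4 of 5 in both, and for primitive endoderm genes 1 to 2 of 4 in both, with Gata4 and Sox17 at 0. Open chromatin at a gene end is not expression, and whether other cells contributed was not tested.

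TetR-only regions numbered 2336 (2.31% of autosomal regions) and WT-only regions 1573 (1.55%), while 32395 regions had a peak in all 6 libraries. With every list limited to its first 56612 rows, the length of the shortest, the order of the 2 counts turned around, to 1739 TetR-only regions (1.93% of 89916) and 2089 WT-only regions (2.32%). The order of the 2 counts thus depended on this cut, which also removes peaks that would bar a call. Of the regions called at equal length, 571 TetR-only (32.8%) and 1015 WT-only (48.6%) had a peak of the other line within 1 kb in the full lists. What made the counts turn around was not tested. In both settings 1501 TetR-only and 1334 WT-only regions were called. Among the regions called with full lists, a peak of the other line lay within 1 kb of 403 TetR-only (17.3%) and 281 WT-only regions (17.9%). With those left out as well, 1168 TetR-only (1.15%) and 1074 WT-only regions (1.06%) remained, and these are called secure below.

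The counts also depended on how many libraries had to have a peak. Fewer libraries make the rule easier to meet: TetR-only regions numbered 3733 without TetR replicate 2, 4790 without TetR replicate 3 and 3673 without WT replicate 2. WT-only regions numbered 2512 without TetR replicate 1, 2969 without WT replicate 1, 2418 without WT replicate 2 and 2632 without WT replicate 3. With 3 libraries a line no single region can reach an exact p below 0.1, so each direction is described by its counts.

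Most regions of either direction had modest places in their lists. The median of their mean place was 30.6 for TetR-only and 28.8 for WT-only regions, and 72 TetR-only against 25 WT-only regions had a mean place above 80. The leading regions below were ranked by mean place among the secure ones, and each is named by the nearest protein-coding gene.

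The best placed TetR-only region lay 0.0730 kb from an end of Jam2 (chr16:84774196-84774428), which encodes a junctional adhesion molecule of tight junctions. Its place was 96.4, 95.1 and 97.2 in the 3 TetR libraries, with no WT peak within 4.68 kb and no TetR-MYBTA peak. The second lay 0.465 kb from the start of Zscan10 (chr17:23601291-23601539), a zinc finger transcription factor gene of embryonic stem cells, at 92.9, 92.3 and 93.8 in TetR. All 3 TetR libraries thus placed both regions at 92.3 or higher, and no WT library had a peak at either.

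Next came a region 15.4 kb from Osbp, an oxysterol-binding protein gene, at 89.9, 89.7 and 91.6 in TetR. Inside Gata3 (chr2:9882905-9883149), which encodes a transcription factor of trophoblast and T cells, the place was 92.8, 88.3 and 87.9. Inside Jag1 (chr2:137095728-137095931), which encodes a Notch ligand, it was 92.2, 88.2 and 86.3. The others of the leading 10 lay inside Iqschfp, Nlrp12 and Snx18, 1.32 kb from Ipmk, which encodes an inositol phosphate kinase, and 4.21 kb from Cand1, a regulator of cullin ubiquitin ligases, with mean places of 87.6 to 89.1. Of these 10 regions, 7 had no peak in any TetR-MYBTA library, and neither had 57.7% of all secure TetR-only regions.

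Among the WT-only regions the best placed lay inside Spaca6 (chr17:17828204-17828597), a sperm protein gene needed for fertilisation, at 87.5, 84.6 and 87.5 in the WT libraries. The second overlapped the start of Mok (chr12:110840831-110841039), at 86.4, 84.6 and 83.9 in WT. The region 7.31 kb from Smoc1, a matrix protein gene, had places of 81.8, 90.4 and 80.3. No TetR library had a peak at any of these, and the lowest of the WT places was 80.3.

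A region inside Tead4 (chr6:128296468-128296730), which encodes a Hippo pathway transcription factor of the trophectoderm, was at 79.6, 77.5 and 70.6 in WT and had a peak in all 3 TetR-MYBTA libraries. Zfp951, whose start was overlapped (chr5:104860030-104860237), was at 79.0, 76.6 and 78.2 in WT, with a TetR-MYBTA peak in all 3 as well and no TetR peak within 46.4 kb. The others lay inside Smpd3, a sphingomyelinase gene, and the glucose transporter gene Slc2a12, 0.749 kb from Syde2, 20.4 kb from the kinetochore gene Zwint and 736 kb from Chordc1, with mean places of 73.8 to 83.1. The WT-only leaders thus sat lower in their lists than the TetR-only leaders. Among them the regions of Mok, Smpd3, Slc2a12 and Zwint had no TetR-MYBTA peak, and neither had 40.1% of all secure WT-only regions.

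**Figure D1:**
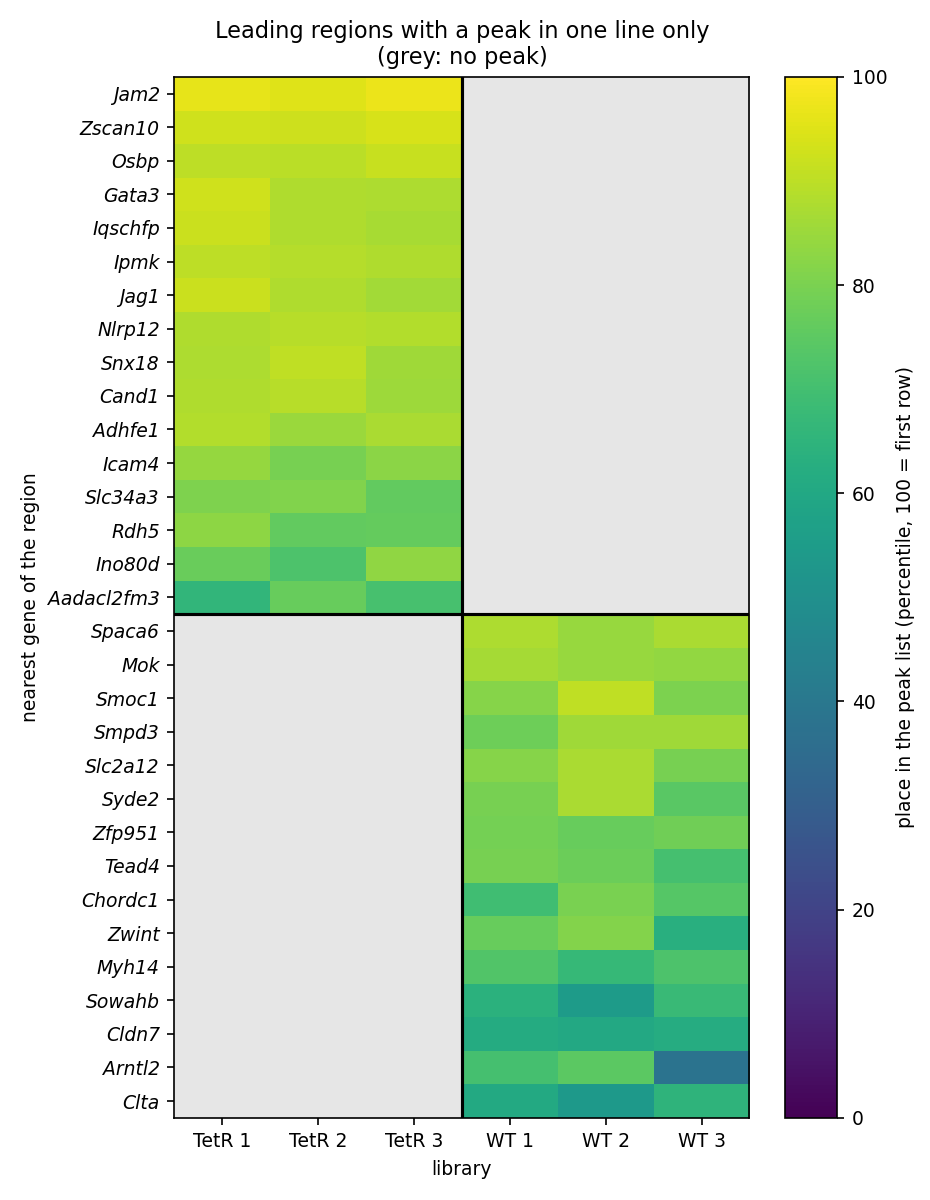
Place of the leading secure regions in each list (colour, percentile with 100 for the first row; grey, no peak), with TetR libraries left of WT libraries and TetR-only regions above WT-only regions. The Jam2 row reaches 95.1 to 97.2 in TetR, and the Arntl2 row varies most between WT libraries, at 70.5, 74.9 and 37.9.

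At gene ends, further TetR-only regions lay near Adhfe1, a mitochondrial dehydrogenase gene (88.6, 85.1 and 87.3 in TetR), Icam4, a red cell adhesion molecule gene (84.4, 79.4 and 82.7), and Slc34a3, a renal phosphate transporter gene (mean place 79.2). Those near Rdh5, a retinol dehydrogenase gene, Ino80d, a subunit gene of the INO80 chromatin remodeller, and Aadacl2fm3 followed with mean places of 78.4, 77.4 and 71.3. Of the leading TetR-only gene-end regions whose gene had a listed start, only that of Zscan10 lay under 1 kb from it. Jam2, Adhfe1 and Ino80d had no listed start, so whether their regions lay at a start was not judged. Further WT-only gene ends belonged to Myh14, a non-muscle myosin gene (72.8, 67.1 and 71.9 in WT), Sowahb, Cldn7 (61.5, 60.3 and 62.1), the clock gene Arntl2 and the clathrin light chain gene Clta (60.8, 53.9 and 65.2).

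The genes with most regions of each direction were picked as the highest counts among all 20661 protein-coding genes, so high counts come with that choice. Near any gene 2.31% of regions were TetR-only and 1.52% WT-only. Tenm3, which encodes a teneurin that guides synapse formation, had 5 TetR-only regions and no WT-only region among 71 regions in or within 50 kb of it. Of its shared regions 4 were higher in TetR by the test described below, a call made for 3.88% of shared regions near any gene. Tenm3 is 1297 kb long, and longer genes hold more regions. Itpk1, an inositol phosphate kinase gene, had 4 of 33, Nek7, a mitotic kinase gene, 4 of 24, and the neighbours Zscan10 and Zfp13 had 4 each, which are the same stretch of chromosome 17 counted for both. In the WT-only direction Sestd1 had 4 of 18, Lsp1 4 of 11, Rgs3 4 of 26, Mpp7 4 of 18 and Aebp2, a partner of Polycomb repressive complex 2, 3 of 26. Rgs3, Mpp7 and Aebp2 also had 1 TetR-only region each.

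The shares by position, given here as a description over regions, were not alike in the 2 directions. Of the TetR-only regions 48.5% lay inside protein-coding genes, against 39.0% of the WT-only regions and 39.5% of all autosomal regions. Between genes were 41.8% of the TetR-only regions, 52.3% of the WT-only regions and 43.0% of all regions. Both directions were scarce within 1 kb of gene ends, at 9.67% of TetR-only and 8.71% of WT-only regions, against 17.5% of all regions and 11.2% of those seen in 1 of the 6 libraries. Regions seen in 3 of the 6 libraries but in both lines are matched in number of libraries, and of these 14.8% lay at gene ends, 42.7% inside genes and 42.5% between genes. Set against them, the TetR-only share inside genes was higher and the WT-only share lower.

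The tilt of TetR-only regions into genes was larger in the secure set, where 53.3% of TetR-only and 39.3% of WT-only regions lay inside genes, and was 48.5% against 37.8% at equal list length. Over whole libraries, whose peaks include those that define the directions, the same share was 38.5%, 38.3% and 37.6% of autosomal peaks in TetR and 36.2%, 37.0% and 36.6% in WT. The lines did not overlap in it (means of 38.1 ± 0.512% for TetR against 36.6 ± 0.379% for WT, SD, n = 3 each, two-sided exact permutation p = 0.1, adjusted p = 0.3 over 6 measures). The library share at gene ends was 20.7 ± 1.25% for TetR and 21.3 ± 0.915% for WT (SD, n = 3 each, exact p = 0.6), and the difference changed its sign at equal list length.

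**Figure D2:**
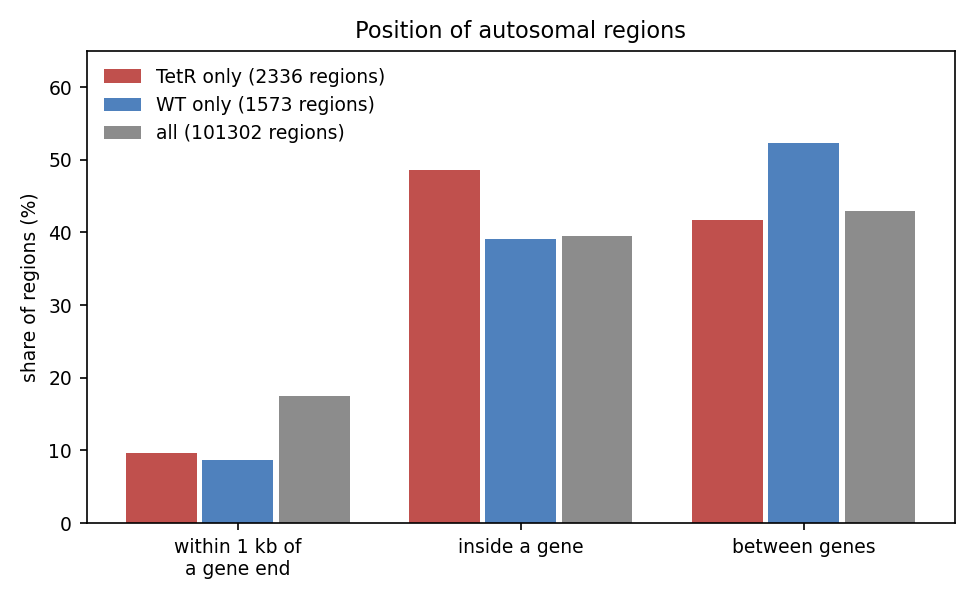
Share of TetR-only regions (left bar of each group), WT-only regions (middle bar) and all autosomal regions (right bar) in each of 3 positions. The TetR-only bar stands highest inside genes, at 48.5%, and the WT-only bar between genes, at 52.3%.

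Genes near the regions were counted for 14 lists and, beside them, for all 20661 protein-coding genes. A TetR-only region lay within 50 kb of 3491 genes (16.9%), at an end of 247 (1.2%) and inside 1175 (5.69%). A WT-only region lay within 50 kb of 2477 genes (12%), at an end of 151 (0.731%) and inside 667 (3.23%). Of all 81650 regions within 50 kb of any gene, 2.31% were TetR-only and 1.52% WT-only, and these are the shares against which each list is read.

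Few regions of either direction lay near the core pluripotency genes, in numbers too small to set apart from the shares near all genes. Within 50 kb of Pou5f1, Sox2 and Klf4 there was no TetR-only and no WT-only region among 15, 8 and 8 regions. Nanog had 1 WT-only region among 18, and its best placed peak at or inside the gene was at 89.8, 85.9 and 88.9 in TetR, while in WT only replicate 3 had one, at 89.0. Inside Esrrb 1 region was WT-only (chr12:86385901-86386260, mean place 42.6), and 1 of the 10 regions shared by all libraries near it was lower in TetR.

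Of the 380 regions near the wider naive list, 9 were TetR-only (2.37%) and 4 WT-only (1.05%), close to all genes in the first direction. TetR-only regions lay inside Tfcp2l1, a naive transcription factor gene (mean place 32.3), Nr5a2, a nuclear receptor gene (43.0), and Tet2, which encodes an enzyme that oxidises methylcytosine (53.5), besides the end of Jam2. Near formative and primed genes there were 3 TetR-only and 2 WT-only among 195 regions, with 1 of them inside the ETS factor gene Etv5, at a low place and not called at equal length. DNA methylation genes had 2 TetR-only regions, inside Tet2 and Tet3, and 1 WT-only among 277.

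At their ends or inside, lineage regulators were hit singly. The 9 TetR-only regions within 50 kb of mesoderm and endoderm genes lay near only 6 of them. Among 205 regions near neural genes 8 were TetR-only (3.90%) and 7 WT-only (3.41%), and of the paired engrailed genes En1 had a TetR-only region at its end (66.1, 41.9 and 47.3 in TetR) and En2 a WT-only one (mean place 47.1), with a TetR peak 964 bp away. Near mesoderm and endoderm genes 9 of 252 were TetR-only (3.57%) and 4 WT-only (1.59%). Gsc carried one at its start (33.2, 28.6 and 32.5 in TetR) and Cdx1, a caudal homeobox gene, one at an end, while Mesp1, the cardiac mesoderm regulator, had a WT-only region at an end. Trophoblast genes had 4 of 168 in each direction, among them those at Gata3 in TetR and at Tead4 and Elf5 in WT.

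Blood progenitor genes had 4 TetR-only and 3 WT-only among 233 regions. The receptor tyrosine kinase gene Kit held a TetR-only region (mean place 51.2), and Myb, the gene of the transcription factor named in the series title, held a WT-only one (27.4, chr10:21130963-21131204). Imprinted genes had 7 TetR-only and 4 WT-only among 285 regions. Gnas, which encodes a G protein subunit, held one of each, and the WT peak nearest its TetR-only region was 544 bp away. The TetR-only regions inside Mest, Grb10, Trappc9 and Commd1, which held 2, had mean places of 21.0 to 35.6. A WT peak lay 451 bp from the Grb10 region.

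Signalling genes held more TetR-only than WT-only regions. Of the 603 regions near 43 genes that steer stem cell identity, 19 were TetR-only (3.15%, exact 95% interval 1.91 to 4.88%) and 7 WT-only (1.16%, 0.468 to 2.38%). Both intervals, which cover counting error only, hold the share near all genes. Of the 43 genes, 11 held a TetR-only region inside them and 1 a WT-only one, against 5.69% and 3.23% of all genes. Smad2 was counted in both directions, with regions 8 bp apart. At equal list length the shares of regions near the signalling genes were 3.24% and 1.62%, against 1.96% and 2.22% near all genes. Their median length was 42.8 kb, against 17.5 kb over all genes, and the part of gene length in these counts was not tested. Peaks near these genes made up 0.612%, 0.604% and 0.602% of TetR libraries and 0.583%, 0.569% and 0.565% of WT libraries, which do not overlap (exact permutation p = 0.1, adjusted p = 0.31 over 31 lists and name families). These peaks include those that define the directions, so their share is not independent of the counts above.

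The members came from several pathways. Lifr, the receptor gene for leukemia inhibitory factor that sustains these cells in culture, held a TetR-only region (mean place 29.8), as did Spred2, a brake on ERK signalling (55.2). In the Wnt branch Tcf7l1, a repressor of pluripotency genes, held 3 (23.1 to 31.2) and Gsk3b, a kinase that marks beta-catenin for degradation, held 1. A WT peak lay 875 bp from the Gsk3b region. In the BMP and activin branch the receptors Bmpr1a, Bmpr2 and Acvr1b and the transducers Smad1 (62.4) and Smad7 held 1 each, of which those at Bmpr1a and Acvr1b were not called at equal length. At an end of Smad2 a TetR-only region (mean place 79.8) and a WT-only region (89.0) lay 8 bp apart, so both lines had a peak there at slightly different positions. The Tcf7l1 regions, with those at Tet3 and Ctnna2, lie in a stretch of chromosome 6 described below.

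Genes of axon guidance and synapse adhesion had 31 TetR-only (2.59%) and 12 WT-only regions (1.00%) of 1199, and 3.02% and 1.17% at equal list length. The TetR-only share was near the 2.31% of all genes. The share of peaks near them, which include those that define the directions, was 1.22 ± 0.0371% for TetR and 1.12 ± 0.0259% for WT (SD, n = 3 each, exact permutation p = 0.1, adjusted p = 0.31), without overlap. The share of all peaks inside genes differed between the lines in the same direction, and its part in this was not tested. These genes are long, with a median of 663 kb, and 20 of 42 held a TetR-only region inside, 9 a WT-only one. Over all genes, with a median of 17.5 kb, 5.69% and 3.23% did. TetR-only regions lay in the guidance receptor gene Robo2 (mean place 65.1), the Robo ligand genes Slit2 (29.4) and Slit3 (58.9), the ephrin receptor genes Epha4 (59.7 and 26.4) and Epha5 (33.9), and 4 in Tenm3. WT-only regions lay in Sema3a, Ephb1 and Cntnap5a, and in 3 places of Cntn5, a contactin gene. Further TetR-only regions lay at an end of the ephrin gene Efna5 and inside Nrxn3, Nlgn1, Lsamp, Cntnap2, Lrp1b, Csmd1 and Csmd3, and Robo1, Unc5d, Ntng1, Cntn5 and Adgrl3 held regions of both directions. The TetR-only regions in Slit2, Nrxn3, Csmd1 and Csmd3 and a Tenm3 region (35.2) were not called at equal length. Nor were a TetR-only region in Robo1, a WT-only region in Cntn5 and the WT-only region in Adgrl3. A WT peak lay 185 bp from the Slit2 region, and a TetR peak 111 bp from the Ephb1 region.

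Among tight junction and cell adhesion genes the directions were nearly even, with 10 TetR-only (2.21%) and 8 WT-only (1.77%) of 452 regions. Jam2 and 3 places in Ctnna2, a catenin gene, were TetR-only, and Cldn7, Nectin1, the integrin gene Itgav and Cdh4 were WT-only, while Cdh18 had both directions 26 bp apart. A Ctnna2 region (mean place 24.7), the Cdh4 region and the TetR-only Cdh18 region were not called at equal length. A WT peak lay 393 bp from another Ctnna2 region. The clustered protocadherins, cell surface genes that lie side by side in clusters, had 4 TetR-only (3.88%) and no WT-only region of 103, though 1.12% were WT-only at equal length. Their share of peaks was 0.101%, 0.101% and 0.0991% in TetR and 0.0835%, 0.0798% and 0.0829% in WT. That share, whose peaks include those that define the directions, did not overlap between the lines (exact permutation p = 0.1, adjusted p = 0.31).

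Feeder fibroblast genes had 5 TetR-only (3.94%) and 2 WT-only (1.57%) of 127 regions, and housekeeping genes 8 (3.05%) and 3 (1.15%) of 262, shares as uneven as those of the signalling genes, among them an end of the tubulin gene Tuba1b, with a WT peak 190 bp away. Two-cell-like genes had 0 and 2 of 32, in gene families where read placement is uncertain.

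Separation of the lines in the share of peaks was not particular to signalling, axon guidance or protocadherin genes. In each list these peaks include those that define the directions. Of 31 lists and name families, 7 were higher in every TetR library than in any WT library and 3 were lower, each at exact permutation p = 0.1 (adjusted p = 0.31). The higher ones included housekeeping genes, at 0.291% of peaks in TetR against 0.275% in WT, and feeder fibroblast genes, at 0.119% against 0.108% (means, n = 3 each), besides blood progenitor and Fox genes. The lower ones were trophoblast genes, at 0.152%, 0.148% and 0.142% in TetR against 0.158%, 0.181% and 0.173% in WT, potassium channel genes and cytochrome P450 genes.

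The TetR-MYBTA libraries, which the rule did not use, were then looked up at each region. At least 1 of the 3 had a peak at 42.9% of the TetR-only regions and 58.3% of the WT-only regions, against 56.3% of the 6728 regions seen in 3 of the 6 libraries but in both lines. All 3 had a peak at 6.98%, 18.2% and 12.6% of them, and none did at 57.1%, 41.7% and 43.7%. The share with a TetR-MYBTA peak was thus lower for TetR-only than for WT-only regions, as a description over regions. Secure regions gave 42.3% and 59.9%, and lists of equal length 47.5% and 64.1%. The shares were 79.0% and 88.5% with only the upper 50% of rows. Without any 1 WT library they drew together, at 49.3% and 50.5% without WT replicate 1, 51.3% and 53.7% without WT replicate 2, and 50.1% and 52.4% without WT replicate 3. Without any 1 TetR library they moved apart. They were 41.2% and 63.2% without TetR replicate 1 and 41.2% and 62.8% without TetR replicate 2. Without TetR replicate 3 they were 39.8% and 62.7%. TetR-MYBTA replicate 3 had 45136 peaks and 5.48% of tags in peaks, against 59675 (7.57%) and 56917 (7.44%) in replicates 1 and 2.

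**Figure D3:**
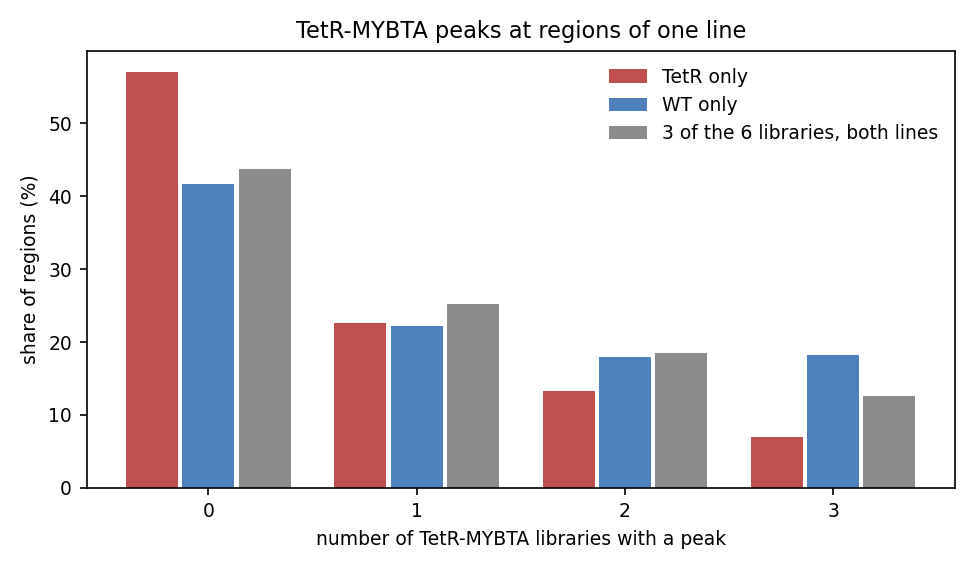
Share of TetR-only regions (left bar), WT-only regions (middle bar) and regions seen in 3 of the 6 libraries of both lines (right bar) with a peak in 0, 1, 2 or 3 TetR-MYBTA libraries. TetR-only regions stand highest at 0 libraries (57.1%) and WT-only regions at 3 (18.2%).

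The directions were spread unevenly over the autosomes. Chromosome 6 held most TetR-only regions, 192 of its 6130 (3.13%), against 69 WT-only (1.13%), and chromosome 7 the lowest share of TetR-only, 86 (1.41%) against 97 WT-only (1.59%). Chromosomes 4, 5 and 7 were the only ones with more WT-only than TetR-only regions with full lists. The share of autosomal peaks on chromosome 6 was 6.25%, 6.22% and 6.29% in TetR against 5.83%, 5.77% and 5.78% in WT. On chromosome 7 it was 6.01%, 6.06% and 6.18% in TetR against 6.46%, 6.35% and 6.46% in WT. On 16 of 19 autosomes the lines did not overlap in this share, each at the smallest exact permutation p of 0.1 (adjusted p = 0.119). The peaks counted include those that define the directions.

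A stretch of chromosome 6 from 68 to 84 Mb, whose bounds come from earlier work on these data, held 58 TetR-only regions of 550 (10.5%) and 1 WT-only region. The rest of the chromosome held 134 of 5580 (2.40%) and 68 (1.22%), close to the shares over all autosomes. Leaving the stretch out took the TetR-only count to 2278 and the WT-only count to 1572.

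**Figure D4:**
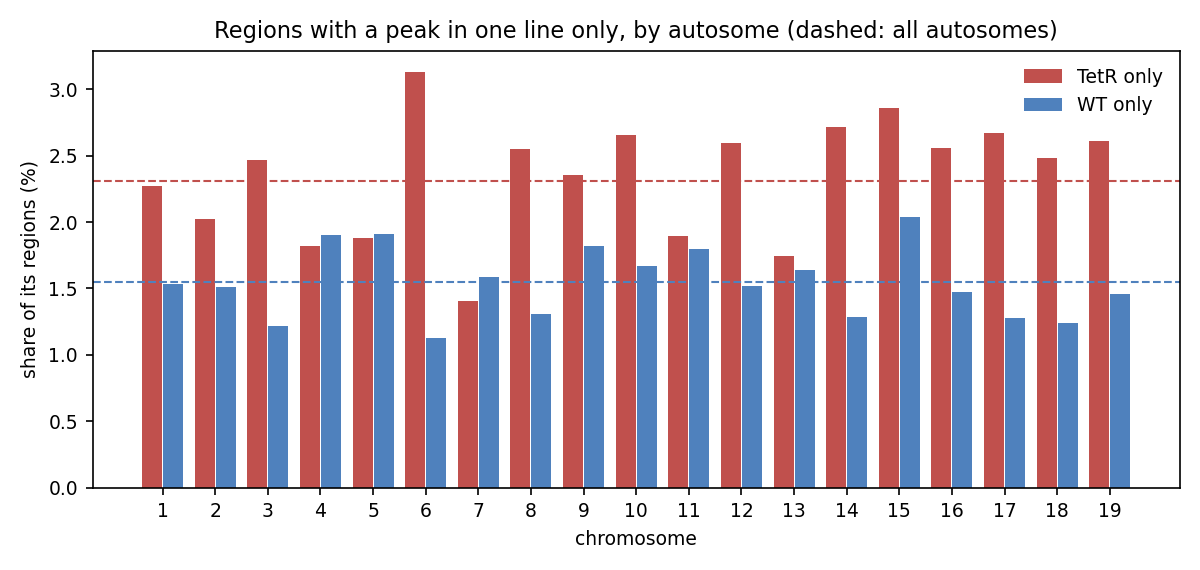
Share of each autosome's regions that were TetR-only (left bar) and WT-only (right bar), with dashed lines at 2.31% and 1.55% for all autosomes. Chromosome 6 has the highest TetR-only bar (3.13%), and on chromosomes 4, 5 and 7 the WT-only bar is the higher one.

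The 32395 regions with a peak in all 6 libraries allowed a test that the presence rule did not use. Their place was ranked among these same regions in each list, turned to normal scores and compared with limma, with Benjamini-Hochberg adjustment over all of them and a threshold of 0.05. By this test 1369 regions were higher in TetR (4.23%) and 1398 lower (4.32%), and in each of them the 3 TetR libraries lay wholly on one side of the 3 WT libraries. At an unadjusted p below 0.05 the number was 9699. The calls rested on all 6 libraries: without 1 of them the higher and lower calls numbered 102 and 275 (TetR replicate 1), 122 and 275 (TetR replicate 2), 147 and 302 (TetR replicate 3), 0 and 0 (WT replicate 1), 181 and 160 (WT replicate 2) and 135 and 105 (WT replicate 3).

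Of the regions higher in TetR, the largest difference was 228 kb from Pfkp (chr13:6877538-6877794), a phosphofructokinase gene. Its place among shared regions was 57.4, 49.9 and 70.9 in TetR against 3.55, 0.468 and 0.261 in WT (difference of normal scores 2.65 ± 0.285 SE, limma adjusted p = 0.0121). Inside Tafa2, a secreted neural protein gene, the place was 45.3, 48.9 and 45.1 in TetR against 0.119, 0.517 and 1.54 in WT (2.498 ± 0.232, limma adjusted p = 0.0121). The groups stood far apart in both, with the WT peaks near the end of their lists. Others of this kind lay inside Arhgap28, Rbms3 and Eqtn and 210 kb from Gdf6, a ligand gene of the BMP family, with differences of 2.29 to 2.53.

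Of the regions lower in TetR, that nearest Fam83b, 129 kb away (chr9:76695637-76695900), was at 13.9, 0.786 and 6.99 in TetR against 91.5, 84.8 and 82.1 in WT (difference -2.77 ± 0.333, limma adjusted p = 0.0133). Inside Robo1 (chr16:72786089-72786353), which encodes the Slit receptor, the place was 3.98, 17.3 and 9.81 in TetR against 88.3, 87.9 and 85.7 in WT (-2.47 ± 0.222, limma adjusted p = 0.0121). A region 103 kb from Bcl2l11, which encodes the pro-apoptotic protein BIM, was at 7.85, 36.0 and 1.95 in TetR against 93.2, 89.5 and 86.3 in WT. In each of these the WT places were at 82.1 or higher and the TetR places at 36.0 or lower. The others lay inside the lipase gene Liph and nearest Usp38, a deubiquitinase gene, and Dclk3, with differences of -2.69 to -2.49. None of the 12 regions named here passed in every alternative, with limma adjusted p up to 0.0700 when 1 library was left out, but all 12 kept their direction.

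Shared regions at gene ends leaned to lower places in TetR. Of 8833 such regions 124 were higher (1.40%) and 464 lower (5.25%), with a median difference of -0.15 in normal scores. Inside genes 593 of 10873 were higher (5.45%) and 401 lower (3.69%), with a median of 0.09, and between genes 652 of 12689 were higher (5.14%) and 533 lower (4.20%), with a median of 0.07. The median over all shared regions was 0.01. Places are relative, so lower ranks at gene ends and higher ranks elsewhere are 1 pattern seen from 2 sides. With the shared regions divided by mean place into 4 groups of equal size, it was present in each group, with 0.893% to 2.39% of gene-end regions higher and 2.86% to 9.37% lower.

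**Figure D5:**
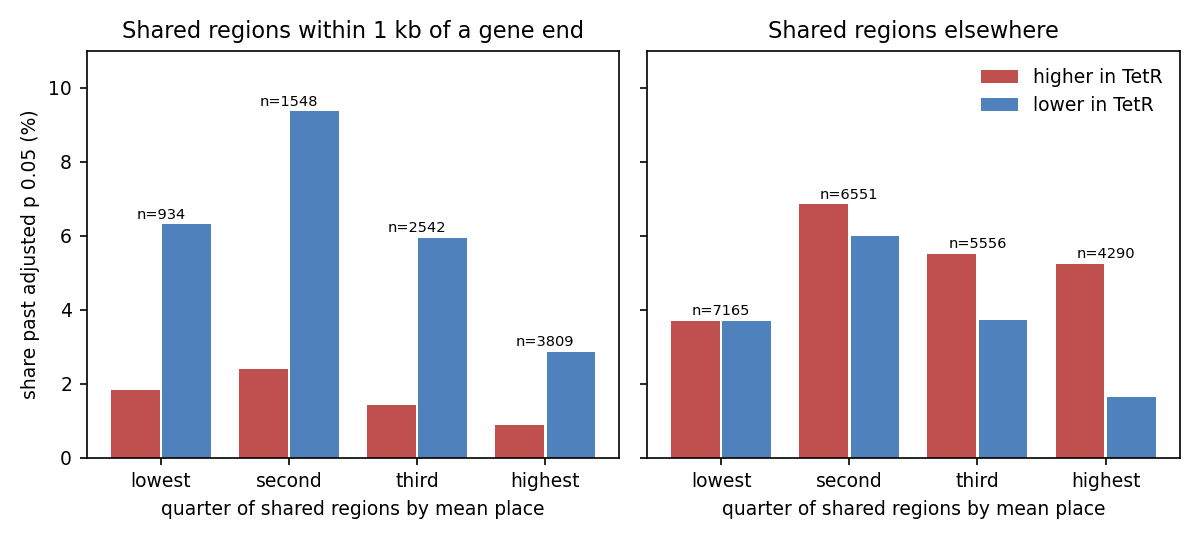
Share of shared regions past an adjusted p of 0.05 that were higher (left bar) or lower (right bar) in TetR, in 4 groups of equal size by mean place, within 1 kb of gene ends (left panel) and elsewhere (right panel), with the number of regions above each pair. At gene ends the lower bar is the taller one in all 4 groups, and elsewhere the higher bar is at least as tall in all 4.

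Cytosolic ribosomal protein genes showed this lean: of 362 shared regions within 50 kb of them 5 were higher in TetR (1.38%) and 33 lower (9.12%), with a median difference of -0.24. Near all genes 3.88% of 26744 shared regions were higher and 4.44% lower, with a median of -0.02. The lean was not particular to ribosomal protein genes. Housekeeping genes had 0 higher and 7 lower of 96, Tmem genes 19 and 51 of 768, and tight junction and cell adhesion genes 8 and 17 of 144. Olfactory receptors had 24 higher and 10 lower of 318. The part of gene ends in these counts was not tested. Genes of axon guidance and synapse adhesion leaned to higher places in TetR, with 21 of 382 higher (5.50%), 10 lower (2.62%) and a median of 0.23. Signalling genes had 11 higher and 11 lower of 182, with a median of -0.13, which is not the direction of their TetR-only regions. On chromosome 11, 42 shared regions were higher and 152 lower, and in the stretch of chromosome 6 from 68 to 84 Mb 52 of 126 were higher (41.3%) and 2 lower.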

How the data were processed

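The deposited data are 1 peak list per library. The submitters' processing notes list HOMER 4.11, the mm10 build, Bowtie2 and Picard, besides Trim Galore 0.6.10, FastQC and deepTools 3.5.5. Per the file headers, HOMER called peaks in each library separately, with a false discovery rate of 0.001, at least 4-fold over the surrounding 10 kb and a local Poisson p-value of 0.0001. The score in the deposited lists is 1 in every row and carries no ranking, and the deposited positions, in base pairs, are printed here counting from 1. A shift of reads for the Tn5 offset, or a removal of blacklisted regions, is not given in the sources used. Peak heights were not used, so no interval is given for single peaks. Total tags (16.4 M to 23.0 M) were taken from the headers.

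Regions, places and calls were made as the results state. Genes came from RefSeq for GRCm38.p6, whose table gives no exons or introns, so positions are gene end (within 1 kb), inside and between genes. Of 381 listed gene symbols 373 matched, and 345 distinct autosomal genes were used. Values per library were set against each other in exact permutation tests, two-sided, and shared regions in limma 3.58.1 in R 4.3.3. Counts were made in Python 3.11.15 with pandas 2.3.3, numpy 2.4.6 and scipy 1.17.1, and plots with matplotlib 3.10.9. The limma step and the counting were checked on simulated data.

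The comparison, the lists and the named-region rule were chosen with earlier results of these data known. Named were the 10 secure regions of each direction with the highest mean place, the 8 highest at gene ends, the 5 genes with most regions, the 6 shared regions with the largest change in each direction among those past the threshold, the core genes Pou5f1, Sox2, Nanog, Klf4 and Esrrb, and listed genes with a region at an end or inside, of which 1 is not reported here; the printed promoters were picked after their values were seen. The settings also tried were equal list length, the upper 50% of each list, other overlap and distance rules, presence in 2 of 3 libraries, X and Y included, each library left out in turn, a block for the replicate number and, added after the data were seen, leaving out the stretch of chromosome 6.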

Additional observations from a re-analysis of the deposited data

Results flagged for a closer look

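The X chromosome was outside the comparison, which covered autosomes, and was looked at because it held a signal of its own. Of its 3553 regions 297 had a peak in all TetR and no WT library (8.36%), against 28 in the reverse direction (0.788%). With lists of equal length the numbers were 263 and 31. No explanation was tested.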

How the results depend on the processing

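The upper 50% of each list gave 1479 TetR-only and 1029 WT-only regions, and presence in at least 2 of 3 libraries gave 7273 and 4860. Leaving out 1 library gave 3204 to 4790 TetR-only and 2012 to 2969 WT-only regions, since fewer libraries have to meet the rule. Within 10 kb in place of 50 kb, a TetR-only region lay near 1737 genes and a WT-only region near 1031. The limma calls on shared regions ranged from 0 to 181 higher and 0 to 302 lower in TetR when 1 library was left out. With lists of equal length they were 1366 higher and 1389 lower, and on percentiles of place 1688 and 1830. The difference between TetR and WT in the share of peaks at gene ends was 0.467 percentage points at equal length (exact p = 0.1), against -0.630 with full lists, and that between genes was 0.132 in the upper 50% (exact p = 0.6), against -0.908. Differences in the share of a chromosome changed sign on 6 autosomes. In the upper 50% they were 0.308 on chromosome 1, 0.0207 on 2, -0.157 on 15, -0.0148 on 17 and -0.00804 on 19. On chromosome 15 the difference was -0.0464 at equal length, -0.00134 without TetR replicate 3 and -0.00154 without WT replicate 1, in a range of -0.00154 to 0.0110 with 1 library left out, and on chromosome 10 it was -0.0200 without WT replicate 1, in a range up to 0.0435. The cause of these changes was not tested.

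The replicate numbers did not pair the libraries: deviations of same-numbered libraries from their line's mean correlated at 0.000639, 5.44e-05 and -0.00142 over shared regions. With the number as a block, limma called 0 regions higher and 0 lower in TetR (smallest adjusted p = 0.0544, with 4418 and 4633 at an unadjusted p below 0.05). Under the block the library measures had exact p of 0.25 or more, the smallest that 3 pairs allow. The block left the difference in autosomal peaks at 4452, in tags in peaks at 1.69 points and inside genes at 1.54 points. Depth limits the weakest peaks: a peak missing from a list may lie just under the threshold of the caller.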

Other observations

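Gene families grouped by name were read against the shares near all genes, 2.31% TetR-only and 1.52% WT-only. Olfactory receptors had 21 TetR-only (2.05%) and 13 WT-only (1.27%) of 1022 regions, zinc finger Zfp genes 43 (1.73%) and 39 (1.57%) of 2479, and solute carriers 80 (2.18%) and 62 (1.69%) of 3673. Potassium channel genes had 14 TetR-only (1.44%) and 16 WT-only (1.65%) of 970 regions. Vomeronasal receptors had 7 (1.70%) and 9 (2.18%) of 412. Sox genes had 6 TetR-only (2.79%) and 1 WT-only (0.465%) of 215, and Fox genes 11 and 7 of 420.

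The Hox clusters had no TetR-only region among 91, and 2 WT-only regions. Histone genes had 0 in each direction among 106 regions, and 0 of their 47 shared regions passed the limma test.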
